A study of Mus musculus with 4 samples.

Results

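Polycomb repressive complex 2 (PRC2) methylates histone H3 at H3K27, a mark of silenced genes that also spreads over the inactive X chromosome. The complex is built on a catalytic subunit, EZH1 or EZH2, held together by EED and SUZ12, with RBBP4 or RBBP7 as histone-binding partners. The Polycomb-like proteins PHF1, MTF2 and PHF19, and JARID2, guide the core to chromatin. The 10 genes that encode these proteins were chosen by name, out of 22367 protein-coding genes tested. KDM5C is a demethylase for H3K4, whose trimethylated form marks active promoters. The study mapped where KDM5C sits in the genome, and the question here was at which PRC2 genes a peak was called.

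KDM5C was profiled by ChIP-Seq in 4 samples of mouse epiblast-like cells labelled day 2, with 1 immunoprecipitate and 1 input for each of 2 genotypes. The labels describe conversion to the epiblast-like state, whereas the methods place day 2 after that stage. All samples came from male XΔTsixY cells, whose only X chromosome carries a truncated Tsix, the antisense repressor of Xist. The labels give the strain as C57BL/6J, while the methods name another inbred background for the mutant strains and a mixed one for the floxed Kdm5c strain. The wtSmcx cells (WT) had an intact Kdm5c. The koSmcx cells (KO) carried the ΔKdm5c allele, which lacks exons for the demethylase domain and leaves a barely detectable protein. The sources differ on replicates. The reporting summary names 2 independently cultured WT replicates and 1 KO immunoprecipitate, a supplementary count lists 2 KO replicates, and the series text speaks of technical duplicates. The WT list held 6916 peaks on assembled chromosomes and the KO list 44. With 1 list per genotype the values below carry no replicate error, and the genotypes could not be tested against each other. The peak lists hold no read counts. The study states a minimum number of reads per sample, but reads and signal tracks were not analysed here. Peak lists show no expression, so neither the cell type nor the loss of Kdm5c could be checked against marker genes.

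Peaks were assigned to a gene when their midpoint lay within 1 kb of any annotated transcription start site (TSS) of it, in mm9 coordinates. Of the 10 PRC2 genes, 3 had a WT promoter peak: Ezh2, Suz12 and Jarid2. This is 30% of the list, beside 24.0% of all protein-coding genes and 44.1% of the 9875 protein-coding genes with a CpG-rich promoter. The number of members with a peak was thus near the background. No peak was called at the promoters of Ezh1, Eed, Rbbp4, Rbbp7, Phf1, Mtf2 and Phf19. In the KO list 0 of the 10 promoters had a peak, where the background was 0.0939% of protein-coding genes. Gene-body peaks in the KO list were likewise at 0 of the 10, beside 0.0626% of protein-coding genes. At such backgrounds a count of 0 is not a result about these genes.

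**Figure D1:**
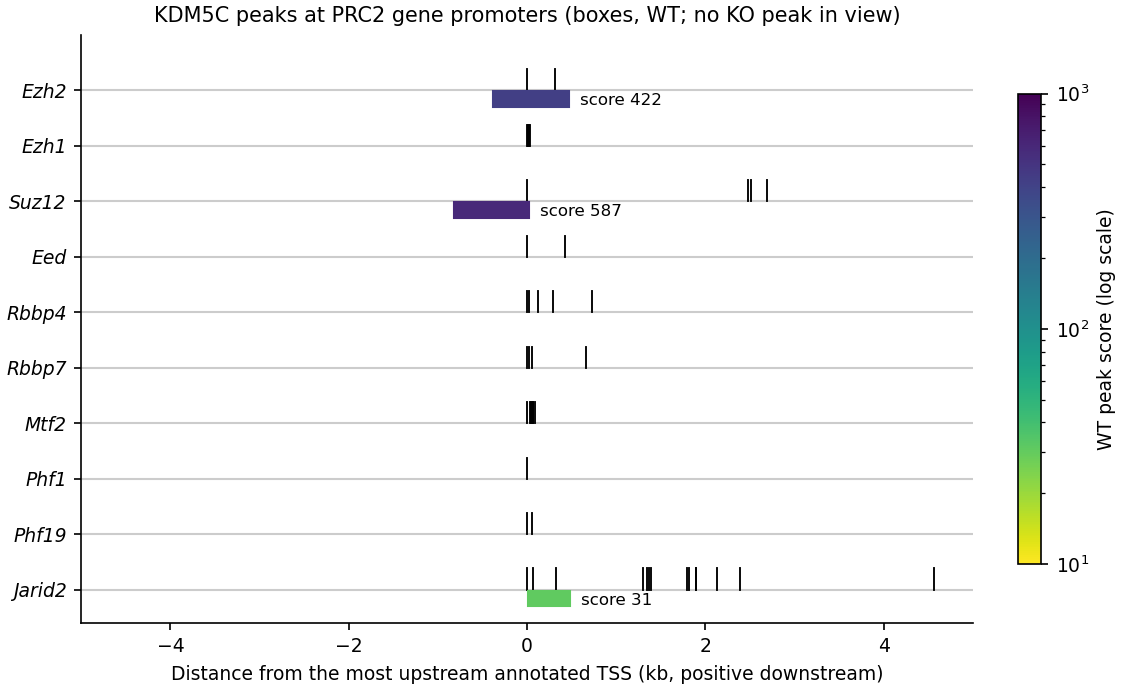
WT peaks (boxes, coloured and labelled by score on a log scale) within 5 kb of the most upstream annotated TSS of each of the 10 PRC2 genes, with all annotated TSSs as vertical ticks. The x axis is the distance from that TSS in kb, positive in the direction of transcription. Peaks lie at Ezh2, Suz12 and Jarid2, the other 7 rows are empty, and no KO peak falls in view.

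The sequences below show promoter DNA within the peaks of Ezh2 and Suz12, beside the peak of Jarid2, and for contrast at Ezh1 and Eed, where none was called. Each is 300 bases of mm9 on the strand of the gene, 5′ to 3′. All lie upstream of the most upstream TSS, and so outside the annotated exons of that gene. Capitals mark 4 motifs searched on both strands: the E-box CACGTG, the E2F core GCGGGA, which reads as TCCCGC from the other strand, the motif ATGGCG found in YY1 sites, which reads as CGCCAT, and the ETS core CCGGAA.
Ezh2, chr6:47545341-47545640, minus strand, inside the peak and directly upstream of the most upstream TSS: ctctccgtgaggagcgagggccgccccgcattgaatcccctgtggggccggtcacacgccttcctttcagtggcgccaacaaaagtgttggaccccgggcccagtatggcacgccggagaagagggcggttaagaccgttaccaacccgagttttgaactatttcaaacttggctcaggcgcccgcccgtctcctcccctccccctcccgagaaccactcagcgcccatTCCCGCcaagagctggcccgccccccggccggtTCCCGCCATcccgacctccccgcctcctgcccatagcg
Suz12, chr11:79806059-79806358, plus strand, centred on the peak summit: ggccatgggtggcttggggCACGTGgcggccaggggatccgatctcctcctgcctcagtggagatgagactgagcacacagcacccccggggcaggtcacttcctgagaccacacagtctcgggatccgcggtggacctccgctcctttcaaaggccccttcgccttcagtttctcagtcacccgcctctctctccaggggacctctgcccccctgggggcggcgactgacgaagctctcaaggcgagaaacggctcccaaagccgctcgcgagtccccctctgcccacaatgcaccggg
Jarid2, chr13:44824543-44824842, plus strand, directly upstream of the most upstream TSS and just outside the peak: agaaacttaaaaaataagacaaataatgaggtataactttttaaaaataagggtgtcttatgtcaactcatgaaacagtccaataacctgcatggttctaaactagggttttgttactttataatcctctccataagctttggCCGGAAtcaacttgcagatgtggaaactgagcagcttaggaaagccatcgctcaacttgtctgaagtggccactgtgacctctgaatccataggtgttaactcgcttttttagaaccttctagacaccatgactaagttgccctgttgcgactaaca
Ezh1, chr11:101087778-101088077, minus strand, directly upstream of the most upstream TSS: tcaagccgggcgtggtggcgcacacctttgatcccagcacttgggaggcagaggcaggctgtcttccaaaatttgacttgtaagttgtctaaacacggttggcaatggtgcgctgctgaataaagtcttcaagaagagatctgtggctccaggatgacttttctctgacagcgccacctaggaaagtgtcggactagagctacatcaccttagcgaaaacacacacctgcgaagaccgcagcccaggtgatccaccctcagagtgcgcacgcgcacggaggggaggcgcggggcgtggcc
Eed, chr7:97129494-97129793, minus strand, directly upstream of the most upstream TSS: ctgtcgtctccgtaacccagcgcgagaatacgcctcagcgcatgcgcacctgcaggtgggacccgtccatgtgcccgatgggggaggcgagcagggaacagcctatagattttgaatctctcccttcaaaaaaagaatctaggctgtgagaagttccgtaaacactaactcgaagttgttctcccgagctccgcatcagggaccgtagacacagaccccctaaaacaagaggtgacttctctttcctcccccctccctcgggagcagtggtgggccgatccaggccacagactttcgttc

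The Ezh2 stretch held 26 CpGs and TCCCGC at positions 230 and 263, counted from 1 at the 5′ end, the latter running into CGCCAT at position 266. The Suz12 stretch held 19 CpGs and CACGTG at position 20. The Jarid2 stretch, outside the peak, held 4 CpGs and CCGGAA at position 144, with a GC content of 39%. The Jarid2 peak itself had a GC content of 60.1%, near the 61.4% of the Suz12 peak, so the stretch does not describe the peak. In the stretches of Ezh1 (17 CpGs) and Eed (18 CpGs) none of the 4 motifs was found. Other genes without a peak did hold some near their most upstream TSS, GCGGGA and ATGGCG at Phf19 and CACGTG at Rbbp4. These matches describe letters in a window, and binding at them was not measured.

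Ezh2 (ENSMUSG00000029687.9, chr6:47480273-47545340, minus strand) encodes the catalytic subunit that dominates in dividing cells. Its promoter peak spanned chr6:47544867-47545724, 858 bp. The peak scored 422 and was enriched 7.29-fold over input. The score is 10 times the −log10 of the q-value with decimals dropped. The peak ranked 444 of 6916 by score, above 93.6% of WT peaks, whose median score was 82. Ezh2 has 9 annotated TSSs, and the peak covered the 2 most upstream. The summit at 47545276 lay in an untranslated exon, 64 bp downstream of the most upstream TSS. It was 247 bp upstream of the next, where the first-numbered transcript starts.

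A second WT peak lay inside Ezh2 (chr6:47511268-47511749, 482 bp), the only peak in the body of any of the 10 genes away from their TSSs. Of protein-coding genes, 4.13% had such a peak. Its summit was in an intron, 33971 bp downstream of the most upstream TSS and 7156 bp upstream of the nearest one. Its score was 11, its fold enrichment 2.57 and its q-value 0.0661. Only 20 of the 6916 WT peaks scored lower, so this call stood at the edge of the authors' threshold. Its sequence was unlike that of the promoter peak, with a ratio of observed to expected CpG of 0.291 against 0.906.

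Ezh1 (ENSMUSG00000006920.8, chr11:101052429-101087777, minus strand), the other catalytic subunit and the form found mostly in resting cells, had no peak at any of its 9 annotated TSSs. The WT peak nearest to these was 20.5 kb away, at chr11:101034795-101035669, with a score of 705. The TSS nearest to that peak was of Ccr10, a chemokine receptor gene, at 1525 bp. The pair of catalytic genes therefore differed in the WT list, with a peak of high score at Ezh2 and no call at Ezh1. Whether signal below the threshold was present at Ezh1 cannot be read from a peak list.

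Suz12 (ENSMUSG00000017548.9, chr11:79806608-79847625, plus strand) encodes the scaffold on which the core is assembled. Its peak was the highest-scoring at any PRC2 gene, spanning chr11:79805787-79806628, 842 bp. It scored 587, was enriched 10.2-fold over input and ranked 258, and 97.4% of WT peaks had a lower fold enrichment. Unlike the Ezh2 peak, it lay almost wholly upstream of the gene, with its summit at 79806209, 399 bp before the TSS. No other annotated gene had a TSS nearer to its midpoint. Eed (ENSMUSG00000030619.8, chr7:97103166-97129493, minus strand), whose protein binds methylated H3K27 and stimulates the enzyme, had no peak. The nearest WT peak was 149 kb away, scored 68 and lay at the promoter of Picalm.

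Rbbp4 (ENSMUSG00000057236.9, chr4:128984344-129012614, minus strand) and Rbbp7 (ENSMUSG00000031353.7, chrX:159198334-159217024, plus strand) encode closely related histone chaperones that also serve in other chromatin complexes. Neither had a peak at its promoter or in its body. The nearest WT peak was 145 kb from Rbbp4, with a score of 68, and 1301 kb from the X-linked Rbbp7, with a score of 64. These peaks lay 100 bp from the TSS of Yars and 79 bp from that of Siah1b.

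The Polycomb-like genes Phf1 (ENSMUSG00000024193.7, chr17:27070072-27074835, plus strand), Mtf2 (ENSMUSG00000029267.10, chr5:108494693-108538023, plus strand) and Phf19 (ENSMUSG00000026873.3, chr2:34749277-34769546, minus strand) had no peak in either list. Their proteins bind CpG-rich DNA and carry a Tudor domain that reads methylated H3K36. The nearest WT peak was 32.9 kb from Phf19 (score 81), 40.2 kb from Mtf2 (score 71) and 46.9 kb from Phf1 (score 113). Widening the promoter window to 5 kb added none of the 7 genes without a peak.

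Jarid2 (ENSMUSG00000038518.8, chr13:44824843-45017012, plus strand) encodes a Jumonji-family protein without demethylase activity that brings PRC2 to its targets. Its peak was weak. It spanned chr13:44824850-44825328, 479 bp, scored 31 and was enriched 2.7-fold at a q-value of 0.000729. It ranked 6140 by score, above only 10.4% of WT peaks. Its summit at 44825264 lay in an untranslated exon, 100 bp downstream of the nearest TSS and 421 bp downstream of the most upstream TSS. Jarid2 has 17 annotated TSSs, and the peak did not lie at the one of its first-numbered transcript, from which the midpoint was 1551 bp upstream. Counting the first-numbered transcript of each gene alone, a choice made after the data were seen, left 2 members with a peak, Ezh2 and Suz12.

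**Figure D2:**
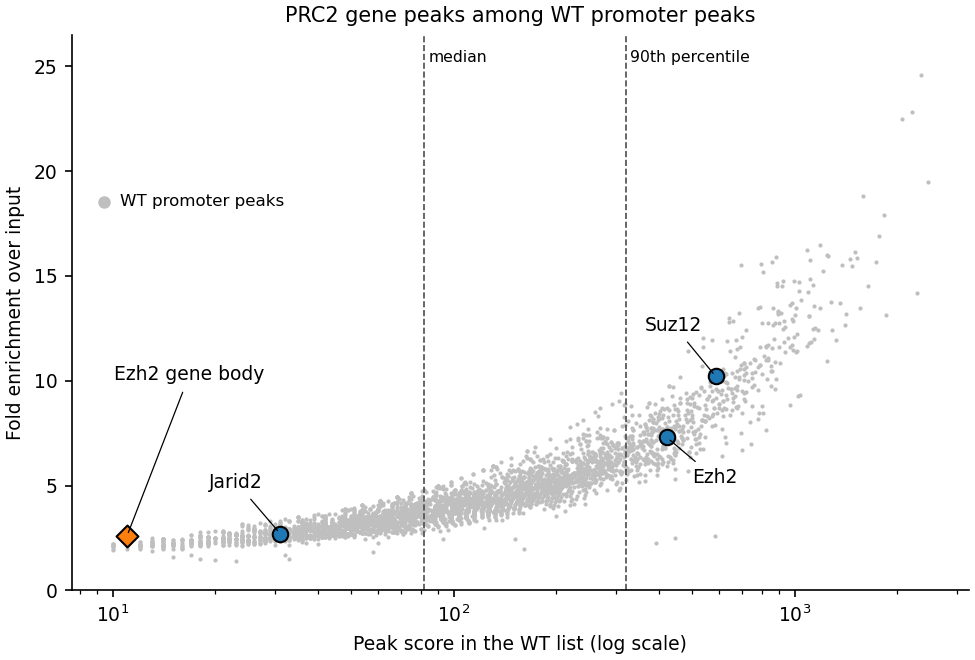
Score (x axis, log scale) and fold enrichment over input (y axis) of the 5064 WT promoter peaks of protein-coding genes (grey), with the promoter peaks of PRC2 genes as blue circles and the Ezh2 gene-body peak as an orange diamond. Dashed lines mark the median (82) and the 90th percentile (320) of scores over all WT peaks; Suz12 and Ezh2 lie past the second, and Jarid2 and the gene-body peak below the first.

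The peaks of PRC2 genes thus fell at opposite ends of the WT list. Among the 5064 WT promoter peaks, with a median score of 87, the Suz12 peak scored above 95.8% and the Ezh2 peak above 92.9%, while the Jarid2 peak scored above 9.32%. The median over the 3 was 422. Promoter peaks at or above the 90th percentile of the WT list were found at 2 of the 10 genes, Ezh2 and Suz12, whose promoters are CpG-rich. The share was 2.79% of protein-coding genes, and 546 of the 9875 CpG-rich ones had such a peak. With only 10 genes on the list, the difference was not tested. The Suz12 and Ezh2 peaks were also wide, wider than 82.4% and 83.6% of WT promoter peaks, whose median width was 540 bp. None of the 4 WT peaks at PRC2 genes overlapped a KO peak, but only 0.622% of all 6916 WT peaks did, so this count is not a result about these genes. The nearest KO peak was between 1.64 Mb (Ezh2) and 77.4 Mb (Eed) from a TSS of the gene.

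Promoters of PRC2 genes with and without a peak overlapped in base composition. A promoter was called CpG-rich when GC was at least 50% and the observed to expected CpG ratio at least 0.6 within 500 bp of the most upstream TSS. By this rule 8 of the 10 promoters were CpG-rich, and 2 of these 8 had a WT peak, or 25%, beside 44.1% of all CpG-rich protein-coding genes. Suz12 (GC 70.9%, ratio 0.874) and Rbbp7 (GC 70.2%, ratio 0.899) were close in composition, yet a peak was called only at Suz12. Ezh2 (GC 63.5%, ratio 0.921) lay near Eed (GC 61.7%, ratio 0.936) and Rbbp4 (GC 65.2%, ratio 0.958), which had none. Jarid2 had a peak with a promoter just outside the rule (GC 49.3%, ratio 0.65). The sequence of the Jarid2 peak alone met both limits (GC 60.1%, ratio 0.661). Its place outside the rule, and with it the 2 of 8, thus rests on the window used. Phf1, the other gene outside the rule, had the lowest ratio (0.55).

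**Figure D3:**
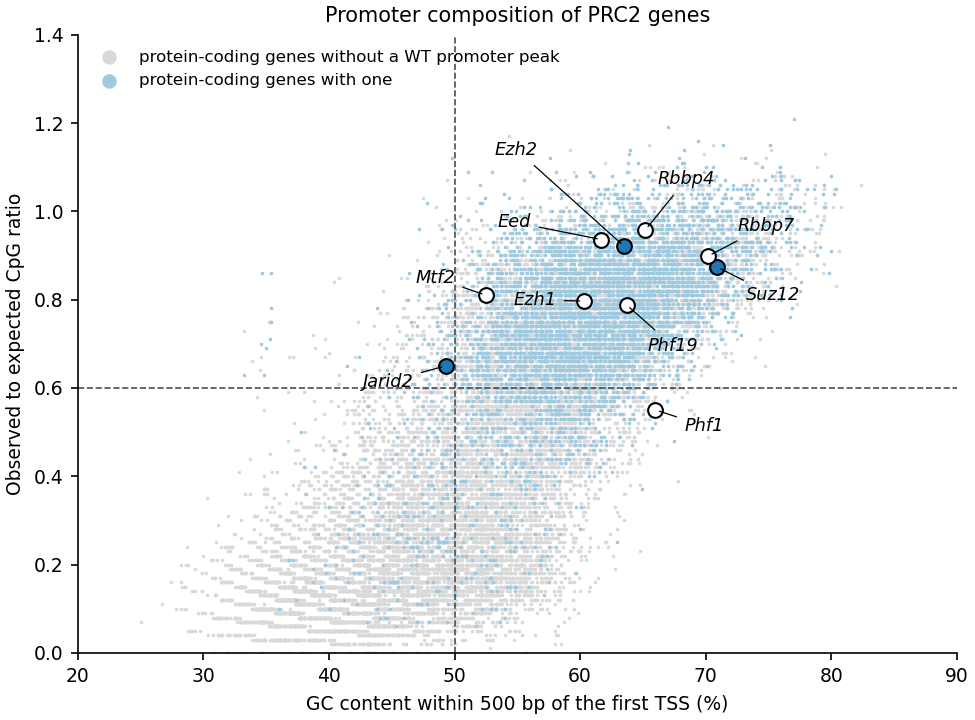
GC content (x axis, %) and observed to expected CpG ratio (y axis) within 500 bp of the most upstream TSS of protein-coding genes with a WT promoter peak (light blue, drawn on top) and without (grey), and of PRC2 genes with a peak (filled circles) and without (open circles). Dashed lines mark 50% and 0.6; open and filled circles lie side by side, as with Rbbp7 and Suz12.

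The authors used uniquely mapped reads alone, so the share of unique sequence was measured. Of the 50-base words within 1 kb of the most upstream TSS, 90.2% occurred once in the genome at Ezh1, the lowest of the 10 genes, and 96 to 100% at the other 9. At Eed, Rbbp7 and Phf19, which had no peak, the share was 100%, as at Ezh2 and Jarid2. At Suz12, with the highest-scoring peak, it was 96%. TSSs farther downstream were not covered, and whether the share bears on the calls was not tested.

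Motifs were counted from 250 bases before to 50 after the most upstream TSS. GCGGGA was found at Ezh2 and Suz12 among the 3 genes with a peak and at Phf19 among the 7 without, beside 24.4% of all protein-coding promoters. ATGGCG was found at Ezh2 and Phf19 (10.5% of promoters), CACGTG at Rbbp4 (7.79%) and CCGGAA at Jarid2 (17.5%). In the 300 bp at the summits, CACGTG was present at Suz12, GCGGGA and ATGGCG at Ezh2, and none of the 4 at Jarid2. Over all WT summits the shares were 20.6% for CACGTG, 41.3% for GCGGGA, 18% for ATGGCG and 20% for CCGGAA.

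The wider Polycomb system was described by a list of 36 further genes, of which 12, or 33.3%, had a WT promoter peak and 0 a KO promoter peak. The shares over all protein-coding genes were 24.0% and 0.0939%, so the KO count is not a result about these genes. Of the 29 CpG-rich genes on the list 11 had a WT peak, or 37.9%, beside 44.1% of all CpG-rich protein-coding genes. The highest scores were at Bap1, the deubiquitinase of histone H2A (1024), at Rybp, a subunit of variant Polycomb repressive complex 1 (PRC1) (633), and at Aebp2, an accessory subunit of PRC2 (367). Named after their values were seen, others with a peak were Pcgf6 (312), Lcorl (198), Auts2 (104), Asxl2 (71), Scmh1 (57), Epop (55), Pcgf2 (48) and Kdm2b (21). PRC2 accessory genes outside the 10 had a peak in 3 of 4, Lcor being the exception. Both genes for the ubiquitin ligases at the core of PRC1, Ring1 and Rnf2, had none. Genes for the PCGF subunits of PRC1 had a peak in 2 of 6, those for canonical PRC1 in 2 of 10. Variant PRC1 genes had one in 3 of 7, and Bap1 with the Asxl genes in 2 of 4. Of the genes listed as H3K27 demethylases, Kdm6a, Kdm6b and Uty, 0 of 3 had a peak. These groups are too small to be told from the background shares, and differences between them were not tested. Across the 12 listed genes with a WT promoter peak the median of the highest score was 87.5, beside 90 for all protein-coding genes with a peak.

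Among 18 genes for writers and erasers of H3K4 methylation, 4, or 22.2%, had a WT promoter peak, with a median score of 42.5 and a highest score of 202, at Kmt2b. None of the 18 had a promoter peak at or above the 90th percentile of the WT list. Of the 10 PRC2 genes 2 did, of the 36 other Polycomb genes 3, of the 9875 CpG-rich protein-coding genes 546, and of all protein-coding genes 2.79%. At that share a count of 0 in 18 is not a result about these genes. Likewise the 22.2% was near the 24.0% of all protein-coding genes with any WT promoter peak. No test of the difference between these lists was made.

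**Figure D4:**
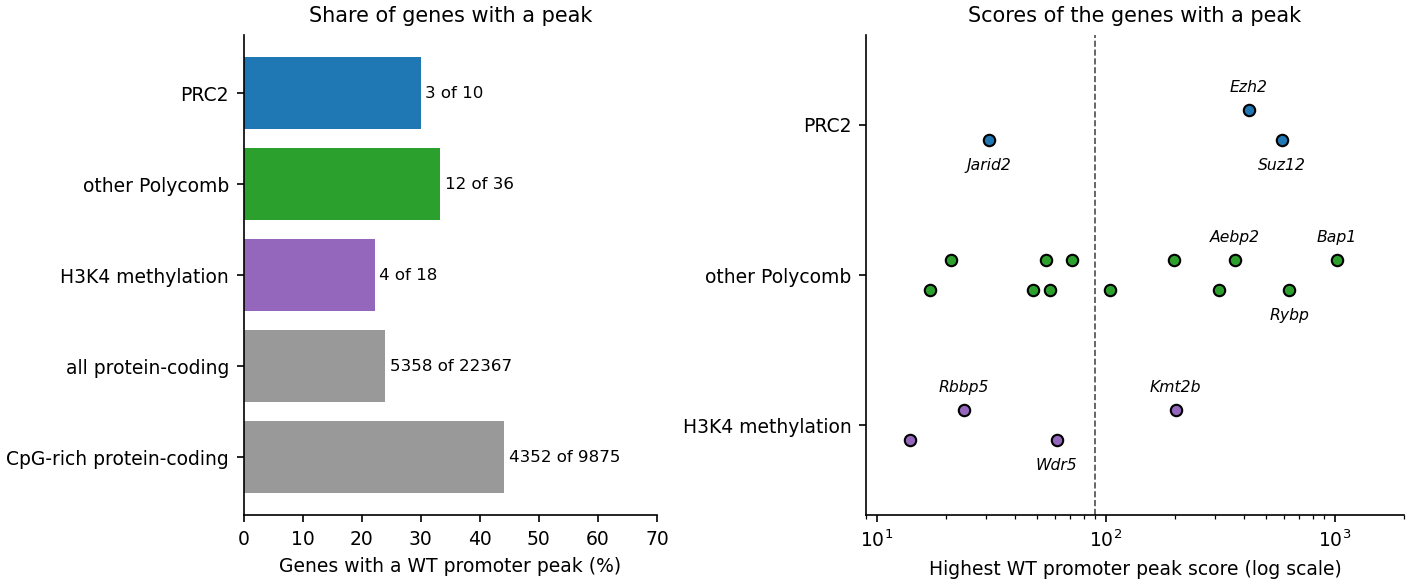
Left, percent of genes with a WT promoter peak in the PRC2, other Polycomb and H3K4 methylation lists and among all and CpG-rich protein-coding genes, with the counts beside each bar. Right, the highest WT promoter peak score (log scale) of each listed gene with a peak, with the PRC2 genes and the 3 highest of the other lists named; the dashed line is the median over protein-coding genes with a peak (90).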

How the data were processed

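The deposited KDM5C ChIP-Seq files used here were 1 peak list per genotype; reads and signal tracks were not analysed here. Per the labels and the study's methods, the authors aligned single-end reads to mm9 with Bowtie (1.1.2 in the submitters' processing notes; the methods name a later version), used reads that mapped uniquely, and ran MACS2 2.1.0.20140616 with input as control. Peak names and the reporting summary give replicates for WT and a single immunoprecipitate for KO, although other sources of the study differ on this. The authors deposited for each peak a score, a fold enrichment over input (a ratio), the −log10 of its p-value (not used) and of its q-value, and its summit offset. The largest deposited q-value was 0.0977 in WT and 0.0948 in KO. The lists hold no read counts, so the depth behind each peak and its precision are not given here.

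Peaks on chromosomes 1 to 19, X and Y were assigned to genes of GENCODE M1 on NCBIM37, the same assembly as mm9, with coordinates counted from 1. The 17 WT and 3 KO peaks on contigs were left out. A promoter peak had its midpoint within 1 kb of any annotated TSS of the gene. A gene-body peak had its midpoint in the gene but not there. Overlap needed 1 bp. All 10 members are named with every peak. Of the other lists, the rule named the 3 highest scores and genes without a peak. Of listed symbols, Epop, Kmt2a, Kmt2b, Kmt2c and Kmt2d were matched under older names. A listed gene is counted but not reported here by name. The members and lists were chosen with earlier results of these data known. The code for promoter calls was run on simulated peaks: 200 of 200 placed within the window were called and 0 of 200 placed outside it. The same window set both placement and call, so this checks the code and not the reliability of the calls. Word counts used exact matches of 50 bases in either strand, while the authors allowed mismatches. Python 3.11.15, NumPy 2.4.6, SciPy 1.17.1, numba 0.67.0 and matplotlib 3.10.9 were used.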

Additional observations from a re-analysis of the deposited data

How the results depend on the processing

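Of 39 alternative values for 8 results, 30 stayed within the limit set for them and 9 moved. A reversal could not occur, because counts, shares and scores have no direction. For counts the limit was a ratio that let a fall from 3 to 2 pass, so such falls are among the 30. For the background share it was an exact binomial confidence interval of the main value. For the median score any change counted as moved. The number of PRC2 genes with a WT promoter peak was 3 with windows of 500 bp and 5 kb, with summits, and with protein-coding transcripts only. It was 2 when only scores from the WT median upward counted, or from the 90th percentile upward, and with the first-numbered transcript alone. The KO counts were 0 under every alternative run for them. At KO promoters a narrower window, fewer transcripts or a score limit could only keep a 0. The score limit in gene bodies and the stricter overlap rule could not change a 0 either. These alternatives therefore say nothing about stability, though they count among the 30. The 5 kb window could have added KO promoter peaks and added none. The background share of protein-coding genes moved to 21.8% at 500 bp, 27% at 5 kb, 13% at the WT median and 2.79% at the 90th percentile, as a narrower window or higher limit must lower it. The median score of promoter peaks at PRC2 genes rose to 504.5 at both score limits, which drop Jarid2. Other Polycomb genes with a peak numbered 6 at the WT median and 3 at the 90th percentile. The Ezh2 gene-body peak was lost at the WT median, leaving 0. No paired analysis was possible because WT and KO were deposited as 1 list each. Without read counts, depth could not be varied, and a promoter without a called peak may hold signal below the threshold.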
